A study of Sus scrofa with 3 samples.

Results

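The miRNAs of the imprinted DLK1-DIO3 locus were followed in the psoas major of pigs aged 63 d, 98 d or 161 d. A miRNA was taken as a member when its name, of any mammalian species and either arm, carried 1 of 39 numbers known from this locus, and names that shared a read sequence were joined. The files listed 103 such names, which joined to 79 miRNAs of 1664 miRNAs and candidates in all, and 34 of the 39 numbers were found. The muscle came from 18 castrated male hybrids of Landrace, Large White and Duroc, 6 at each age, and equal amounts of total RNA of the 6 pigs of an age were pooled into 1 small RNA library. The D63, D98 and D161 libraries, which the labels describe as fattening pigs without any treatment, therefore had no replicates, the spread between pigs was not measured, and no test was run. Age and library cannot be told apart.

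The DLK1-DIO3 locus is a domain of mammalian genomes in which the copies inherited from father and mother are used differently. The paternal copy expresses the protein genes DLK1, RTL1 and DIO3, while the maternal copy expresses long non-coding RNAs, MEG3 among them, and a long series of miRNA genes. These miRNAs are usually described as a smaller group around miR-127 and miR-136, partly antisense to RTL1, and a larger group from miR-379 to miR-410. In muscle the locus is best known from the callipyge sheep, in which the expression of its genes is changed and the hindquarters are enlarged. A miRNA precursor is a hairpin, from which a 5p and a 3p arm can each give a mature miRNA, and bases 2 to 8 of the mature miRNA, the seed, largely set which messenger RNAs it pairs with.

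The 7 members with the most reads are shown first, because they weigh most in the summed values of the locus, together with ssc-miR-136 as the other arm of the mir-136 hairpin. Each is the representative read of the arm as listed in the files, written 5′ to 3′ with T for U, and the capitals mark the seed.
ssc-miR-127: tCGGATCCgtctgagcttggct
bta-miR-381: tATACAAGgacaagctctctgt
mml-miR-380-3p: tATGTAATatggtccacgtct
hsa-miR-136-3p: cATCATCGtctcaaatgagtct
ssc-miR-136: aCTCCATTtgttttgatgatg
bta-miR-411a: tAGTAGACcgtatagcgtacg
cfa-miR-409: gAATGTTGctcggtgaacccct
ssc-miR-369: aATAATACatggttgatcttt

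A second set is shown because its members shared a seed and can be compared with each other. Of 69 different seeds, 7 were shared, by 17 members in all. Shown are the pairs in which both members had reads at every age: the 3p arms of mir-376b and mir-376d, of mir-485 and mir-539 and of mir-411 and mir-379, and the miRNAs named mmu-miR-370-3p and ssc-miR-370.
bta-miR-376b: aTCATAGAggaaaatccatgt
bta-miR-376d: aTCATAGAggaaaatccacat
oar-miR-485-3p: gTCATACAcggctctcctctct
oar-miR-539-3p: aTCATACAaggacaatttcttt
hsa-miR-411-3p: tATGTAACacggtccactaac
oar-miR-379-3p: tATGTAACatggtccactaac
mmu-miR-370-3p: gCCTGCTGgggtggaacctggt
ssc-miR-370: gCCTGCTGgggtggaacctgga

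The last set holds members at the ends of the range of folds between ages, with both arms of mir-377, whose folds from 63 to 98 d lay furthest apart among the hairpins with both arms tested.
bta-miR-656: aATATTATacagtcaacctct
ssc-miR-493-5p: tTGTACATggtaggctttcatt
bta-miR-377: aTCACACAaaggcaacttttgt
cgr-miR-377-5p: aGAGGTTGcccttggtgaattc

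The files gave 1464699, 2418187 and 2242716 reads at 63, 98 and 161 d over all their entries, and levels are given as reads per 1000000 of these (RPM). With 3 counts taken as the smallest detectable amount, this corresponded to 2.05, 1.24 and 1.34 RPM. The 7 miRNAs chosen as markers of skeletal muscle (miR-1, miR-133a, miR-133b, miR-206, miR-208b, miR-499 and miR-486) were present at every age and together held 283000, 266700 and 296100 RPM at 63, 98 and 161 d. miR-143 and miR-145, markers of smooth muscle, summed to 9415, 11870 and 27270 RPM, and miR-126 of endothelium stood at 5834, 9769 and 6759. The blood markers miR-451 and miR-144 summed to 860, 1584 and 1145 RPM, the neural markers miR-9 and miR-124 to 1415, 2691 and 2446, and the 6 miRNAs of liver and epithelium to 74.8, 292 and 127.3. Each of these 6 was highest at 98 d, with miR-122 at 7.51, 123.2 and 5.35 RPM and miR-200a at 44.0, 109.6 and 85.8. None of the markers was at 0 in a library, and their part in the values below was not tested. In such tissue samples fewer cells of a type and less RNA per cell cannot be told apart.

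The locus held a smaller share of the reads at each later age. Its members had 21056 counts at 63 d, 23776 at 98 d and 14121 at 161 d. These counts corresponded to 1.44% of the 63 d reads, with a 95% Wilson interval from 1.42 to 1.46%. The share was 0.983% in the 98 d library, with limits of 0.971 and 0.996%, and 0.630% in the 161 d library, with limits of 0.619 and 0.640%. The intervals did not overlap, and like all intervals given here they cover counting error only. Between the first 2 ages the summed level changed by a fold of 0.684, for which the 95% Clopper-Pearson interval ran from 0.671 to 0.697. The next step had a fold of 0.640 (0.627 to 0.654), and both steps together one of 0.438 (0.429 to 0.447). Over 6 ways of scaling the libraries, these folds ranged from 0.603 to 0.684, from 0.640 to 0.805 and from 0.424 to 0.502. When only the hairpins that were counted entered the total, a scaling added after the data had been seen, the share was 2.08%, 1.35% and 0.883%.

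The D63, D98 and D161 libraries held reads of 69, 75 and 65 of the 79 members, and 61 members were present in every library. At least 100 counts in some library were reached by 28 members, while 26 stayed below 10 counts in every library. The 20 highest members held 92.4%, 90.8% and 93.6% of the reads of the locus at 63, 98 and 161 d.

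ssc-miR-127, which lies antisense to RTL1 in mammals, was the highest member at every age. It had 10062 counts at 63 d, 8724 at 98 d and 6318 at 161 d, or 6870, 3608 and 2817 RPM. This made up 47.8%, 36.7% and 44.7% of the reads of the locus and rank 20, 31 and 30 among the miRNAs of the library. Its level at 98 d was 0.525 times that at 63 d (0.510 to 0.540), just inside the 2-fold limit, and the fold ranged from 0.463 to 0.525 over the scalings. From 98 to 161 d the fold was 0.781 (0.756 to 0.807) and ranged from 0.781 to 0.982 over the scalings. The larger part of the difference thus lay between the first 2 ages, and the size of the second step depended on the scaling.

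bta-miR-381, the 3p arm of a precursor of the larger group, followed with 3648, 4422 and 3007 counts, or 2491, 1829 and 1341 RPM. On the RPM scale its folds from one age to the next were alike, 0.734 (0.703 to 0.767) and 0.733 (0.6998 to 0.768). Over the scalings they ranged from 0.648 to 0.734 and from 0.733 to 0.922, so the likeness depended on the scaling. The next member, mml-miR-380-3p, reached at most 762 RPM.

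The next members did not share one course. mml-miR-380-3p had 580, 762 and 267 RPM at 63, 98 and 161 d and was highest at 98 d. hsa-miR-136-3p stood at 367, 378 and 315 RPM and varied least among the 20 highest members. cfa-miR-409 had 426, 287 and 99.9 RPM and was lower at each step. ssc-miR-369 stood at 227, 295 and 127.1 RPM, again with its highest value at 98 d. The plot of the 20 highest members shows both courses, and in each of them the 161 d library was the lowest.

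**Figure D1:**
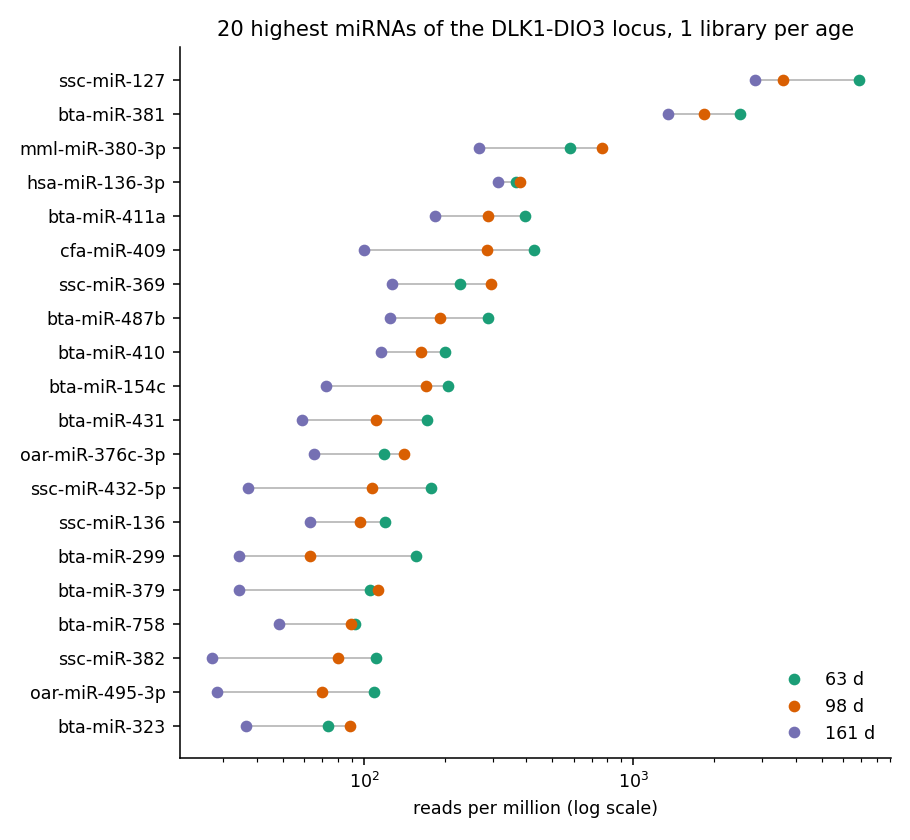
RPM (log scale) of the 20 highest members, 1 point per library and age, with a line from the lowest to the highest value. The 161 d point is the leftmost in every member, while the order of 63 and 98 d differs between members, as for mml-miR-380-3p with 580 and 762 RPM.

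Members were compared between ages where they had at least 20 counts in the pair of libraries together. Of the 79 members, 51, 50 and 49 met this from 63 to 98 d, from 98 to 161 d and from 63 to 161 d. A fold above 2 or below 0.5 was the limit, and the share of all miRNAs tested past that limit is given as the background.

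From 63 to 98 d the members moved in both directions. A fold below 0.5 was found for 5 of 51 members, against 6.38% of all miRNAs tested, and a fold above 2 for 1, against 13.2%. The median log2 fold was -0.30 for the members and 0.21 for all miRNAs tested. The counting interval lay below 1 for 23 members, against 24.3% of all miRNAs tested, and above 1 for 5, against 37.7%, and it included 1 for 23. Over the scalings 29 members were below 1 in every case and 19 above 1, and 3 changed direction, hsa-miR-136-3p, ssc-miR-376a-5p and bta-miR-379.

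The member past the upper limit was bta-miR-656, with 55 counts at 63 d, 195 at 98 d and 79 at 161 d, or 37.6, 80.6 and 35.2 RPM. Its fold of 2.15 (1.58 to 2.95) went down to 1.89 with another scaling. hsa-miR-411-3p followed with a fold of 1.64 (1.05 to 2.63), and bta-miR-411c-5p with 1.56 (1.19 to 2.08). In the other direction the smallest folds were those of ssc-miR-370 with 0.196 (0.0896 to 0.396), cgr-miR-377-5p with 0.312 (0.163 to 0.577) and mmu-miR-370-3p with 0.324 (0.246 to 0.423). mmu-miR-370-3p had 161, 86 and 45 counts, or 110, 35.6 and 20.1 RPM. ssc-miR-370, whose read differs from that of mmu-miR-370-3p only in the last base, had 34, 11 and 13 counts. With names joined by number, letter and arm, which joins this pair, 4 of 50 members were below 0.5, against 6.07% of all miRNAs. bta-miR-299, at 156, 62.9 and 34.3 RPM, was the only one of the 20 highest members past the limit on this scale, with a fold of 0.402 (0.325 to 0.496), and bta-miR-485, with 78, 63 and 33 counts, was just past it with 0.489 (0.345 to 0.691).

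From 98 to 161 d nearly all members were lower. The fold was below 1 for 48 of 50 members, against 71.9% of 509 miRNAs tested, and below 0.5 for 25, against 16.3%. None of the members was above 2, against 3.54% of all. The median log2 fold was -0.997 for the members and -0.306 for all miRNAs tested. The interval lay below 1 for 42 members, against 48.1%, and above 1 for none, against 10.2%. The 2 members above 1 were ssc-miR-370 and hsa-miR-431-3p, with folds of 1.27 (0.527 to 3.14) and 1.29 (0.512 to 3.34), both with fewer than 20 counts in either library. hsa-miR-136-3p had a fold of 0.834 and was the member whose direction depended on the scaling, which raised it to 1.05.

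The smallest folds of this step were found among members of modest level. bta-miR-154b, with 25, 47 and 7 counts in the order of age, had a fold of 0.161 (0.0612 to 0.357). The 5p arm bta-miR-539, with 20, 22 and 4 counts, had a fold of 0.196 (0.0491 to 0.577), and ssc-miR-376a-5p, with 15, 25 and 6, had 0.259 (0.0868 to 0.646). Better supported was ssc-miR-493-5p, with 92.9, 56.2 and 14.7 RPM and a fold of 0.262 (0.173 to 0.385). bta-miR-379, which opens the larger group in mammals, had 105, 113 and 34.3 RPM and a fold of 0.305 (0.234 to 0.395). Of the members that were highest at 98 d, mml-miR-380-3p held the most reads, and its fold from 98 to 161 d was 0.350 (0.319 to 0.384).

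Over the whole period every member tested was lower at 161 d. All 49 members had a fold below 1, against 55.8% of 468 miRNAs tested, and 31 were below 0.5, against 19.4%. None was above 2, against 10.5%. The median log2 fold was -1.22 for the members and -0.15 for all miRNAs tested. The interval lay below 1 for 41 members, against 40.2%, and above 1 for none, against 25.9%, and it included 1 for 8. Over the scalings 47 of 49 members were below 1 in every case, and oar-miR-539-3p and bta-miR-656 no longer lay below 1 in at least one of them, with a highest fold of 1.07 for bta-miR-656. Scaling with DESeq2 moved the median log2 fold of all miRNAs from 0.21 to 0.03 from 63 to 98 d and from -0.31 to 0.02 from 98 to 161 d. The count below 0.5 was then 8 of 51 members from 63 to 98 d, against 10.1% of all miRNAs, with 10.3% above 2. From 98 to 161 d it was 17 of 50 members, against 10.6% of all, with 7.66% above 2. The difference between the median of the members and that of all miRNAs was -0.51, -0.69 and -1.07 in the pairs 63 to 98 d, 98 to 161 d and 63 to 161 d under each of the scalings. A scaling shifts all log2 folds of a pair by the same amount, so this difference cannot change with it.

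The smallest folds from 63 to 161 d were those of cgr-miR-377-5p with a fold of 0.119 (0.0407 to 0.287), bta-miR-539 with 0.131 (0.0325 to 0.390) and ssc-miR-493-5p with 0.159 (0.105 to 0.233). cgr-miR-377-5p and bta-miR-539 had only 6 and 4 counts at 161 d. Closest to no difference were bta-miR-656 with 0.938 (0.657 to 1.35), oar-miR-539-3p with 0.877 (0.554 to 1.40) and hsa-miR-431-3p with 0.871 (0.337 to 2.34). oar-miR-539-3p had 35, 66 and 47 counts, and the intervals of these folds included 1.

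Of 48 members tested in all 3 pairs, 28 were highest at 63 d (58.3%), 20 at 98 d and none at 161 d. Of 442 miRNAs tested in all pairs, 37.6% were highest at 63 d, 45.0% at 98 d and 17.4% at 161 d. The lowest value lay at 161 d in 47 of the 48 members (97.9%) and in 48.0% of all miRNAs, and 27 members were lower at both steps (56.2%, against 29.2% of all).

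**Figure D2:**
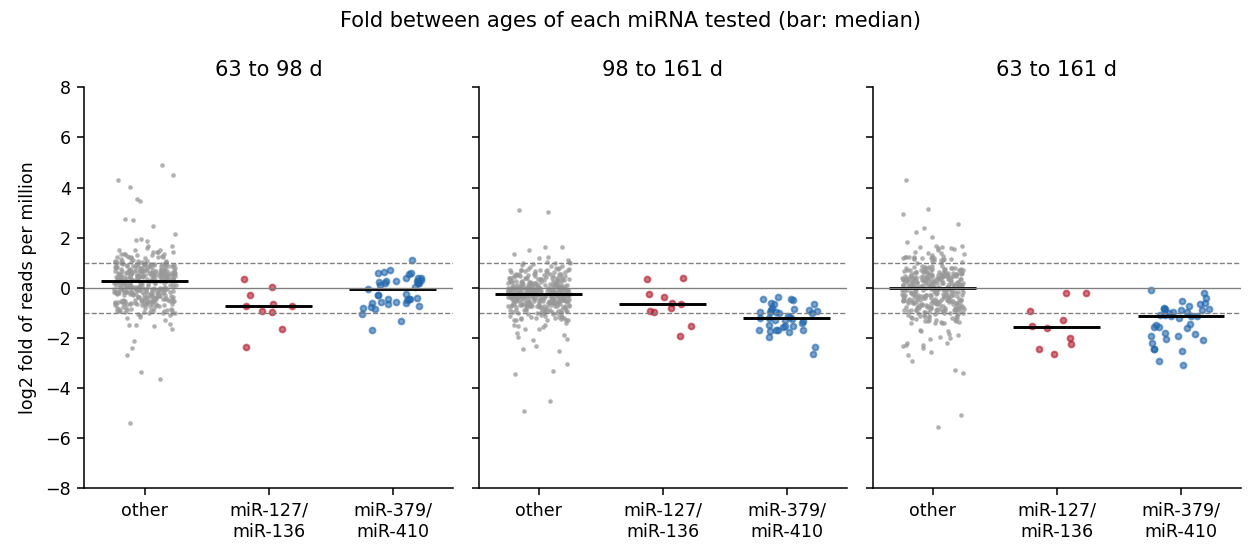
Log2 fold of RPM between ages for each miRNA with at least 20 counts in the pair, with the members in their 2 groups beside all other miRNAs, black bars for the medians and dashed lines at the 2-fold limit. Other miRNAs listed at 0 in 1 library of a pair are not drawn (19, 24 and 18 in the pairs from left to right). The members of the miR-379/miR-410 group centre near 0 from 63 to 98 d and all lie below 0 from 98 to 161 d.

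Summed over their members, the 2 groups of the locus had their larger step at different ages under each of the 6 scalings, a difference that could not be tested with 1 library per age. The miR-127/miR-136 group, with 13 members from mir-127, mir-136, mir-370, mir-431, mir-432 and mir-493, summed to 7965, 4420 and 3348 RPM at 63, 98 and 161 d. The first step had a fold of 0.555 (0.541 to 0.570) and the second one of 0.757 (0.735 to 0.780). The miR-379/miR-410 group, with 66 members, summed to 6411, 5412 and 2948 RPM. Its fold was 0.844 (0.822 to 0.867) in the first step and 0.545 (0.529 to 0.561) in the second, the reverse order of the smaller group. Over the whole period the groups had folds of 0.420 (0.408 to 0.433) and 0.460 (0.446 to 0.475).

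ssc-miR-127 held most reads of its group, and without it the order of the steps in that group depended on the scaling, as a comparison added after the data had been seen showed. The other 12 members of the miR-127/miR-136 group summed to 1095, 813 and 531 RPM, with folds of 0.742 (0.694 to 0.793) and 0.654 (0.608 to 0.703). The second step was the larger one on this scale and with the total of the counted hairpins, and the first step under the other 4 scalings, as with DESeq2 at 0.654 and 0.822. Without bta-miR-381 the miR-379/miR-410 group had folds of 0.914 (0.884 to 0.945) and 0.449 (0.431 to 0.466), with the second step the larger under all 6 scalings. Member by member, 8 of 10 tested in the miR-127/miR-136 group were below 1 from 63 to 98 d and 21 of 41 in the other group, against 41.2% of all miRNAs tested. From 98 to 161 d the count below 0.5 was 2 of 11 in the miR-127/miR-136 group and 23 of 39 in the miR-379/miR-410 group, against 16.3% of all, with median log2 folds of -0.65 and -1.20.

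Among the other members of the smaller group, ssc-miR-432-5p had 177, 107 and 37.0 RPM and bta-miR-431 171, 111 and 58.9. Their folds over the whole period were 0.209 (0.161 to 0.269) and 0.344 (0.276 to 0.426). ssc-miR-136, the 5p arm of mir-136, had 120, 96.8 and 62.9 RPM and a fold of 0.526 (0.418 to 0.661). The hsa-miR-136-3p arm of the same hairpin had 0.860 (0.767 to 0.964), the fold closest to 1 among the members of this group with at least 100 counts in some library. ssc-miR-493-3p had 32, 27 and 16 counts and a fold of 0.327 (0.167 to 0.613), against 0.159 for the 5p arm of its hairpin.

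Members that share a seed did not all share a course. oar-miR-485-3p, with 79.9, 47.6 and 14.7 RPM, was 0.184 times its 63 d level at 161 d (0.121 to 0.273), while oar-miR-539-3p, with 23.9, 27.3 and 20.96, was at 0.877 times. At 63 d the first stood above the second, and at 161 d the second had 47 counts and the first 33. bta-miR-376b had 37, 80 and 39 counts and bta-miR-376d 20, 48 and 14, both highest at 98 d. hsa-miR-411-3p had 28.3, 76.5 and 28.2 counts and oar-miR-379-3p 2.67, 13.2 and 2.83, which are not whole because the authors divided a read that mapped to several hairpins between them.

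Positions were given for 43 members. Of these, 32 arms of 21 precursors lay on the minus strand of 1 genome sequence over 25920 bases, and 10 arms of mir-493, mir-432, mir-136, mir-431 and mir-127 lay on another with starts within 30148 bases, those of mir-432 and mir-136 194 bases apart. The files name no genome build, so these positions are relative to each other only. In the RefSeq gene table of assembly Sscrofa11.1, DLK1, MEG3, MIR493, RTL1, MIR127, MIR432 and MIR136 stand in this order on chromosome 7, and MIR376C, MIR376A, MIR381 and DIO3 lie on an unplaced sequence. The positions used here differ from that order, with mir-127 after mir-432 and mir-136. They also place mir-493 on the minus strand and mir-432, mir-136, mir-431 and mir-127 on the plus strand. A further 36 members had no position, among them mml-miR-380-3p, bta-miR-411a, bta-miR-154c, bta-miR-299 and bta-miR-379, and these held 14.9%, 20.4% and 13.9% of the reads of the locus at 63, 98 and 161 d. Per the file headers, 35 of these members belong to the class whose reads matched miRNA entries of other mammals and not the genome used. ssc-miR-370 was placed on another genome sequence.

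Along the 25920 bases the level did not follow the position. From mir-376c the precursors follow in the order mir-376d, mir-376b, mir-376a, mir-381, mir-487b, mir-539, mir-655, mir-411c, mir-487a, mir-382, mir-485, mir-323b, mir-154b, mir-496, mir-377, mir-541, mir-409, mir-412, mir-369 and mir-410. mir-381, 4886 bases from mir-376c, had 2491 RPM in its 3p arm at 63 d, and mir-487b, the next precursor, 289. ssc-miR-376c, the 5p arm of the first precursor, had 7, 8 and 1 counts against 173, 341 and 146 of oar-miR-376c-3p. mir-487a had 2, 3 and 1 counts, the lowest of the precursors over the libraries, while mir-411c beside it had 49.2 RPM in its 5p arm at 63 d. At the far end cfa-miR-409, hsa-miR-412-5p, ssc-miR-369 and bta-miR-410 lay 25144, 25306, 25500 and 25920 bases from mir-376c, and their folds from 63 to 98 d were 0.673, 0.650, 1.301 and 0.813. Neighbours thus differed in direction between the first 2 ages.

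**Figure D3:**
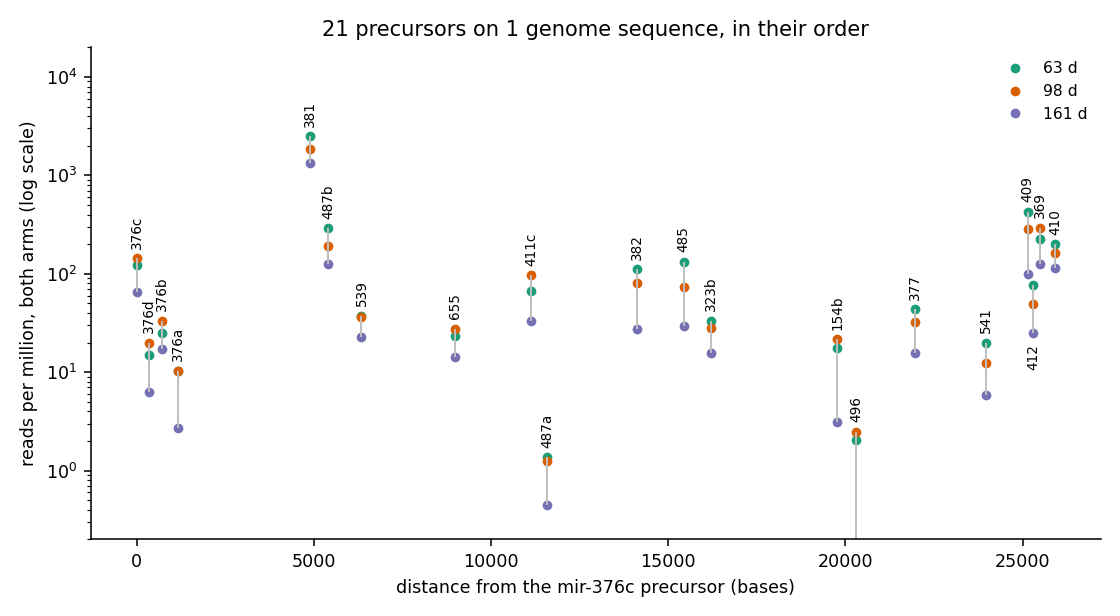
RPM of both arms (log scale) of 21 precursors against their distance in bases from mir-376c, 1 point per age, labelled with the number of the leading arm. mir-381 stands highest at every age, mir-487a and mir-496 lowest, and mir-496 had 0 counts at 161 d.

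Both arms were found for 31 hairpins. In the 28 of these with at least 100 counts over the arms and libraries together, the 5p arm was above 50% in every library for 8 hairpins, the 3p arm for 17, and neither arm for 3. mir-127 gave almost only its 3p arm, with 8, 17 and 8 counts of hsa-miR-127-5p against 10062, 8724 and 6318 of ssc-miR-127. mir-381 was alike, with 12, 12 and 4 counts of its 5p arm, which is the arm that bears the porcine name. mir-432 gave 259, 258 and 83 counts from the 5p arm and 0, 2 and 0 from the 3p arm.

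In several hairpins the share of the 5p arm was lower at the later ages. For mir-136 the shares in the order of age were 24.6% (95% Wilson interval 21.6 to 27.9), 20.4% (18.2 to 22.8) and 16.6% (14.3 to 19.3), and the first and last intervals did not overlap. For mir-299 it was 66.2% (61.1 to 71.0), 51.4% (45.7 to 57.0) and 47.5% (39.99 to 55.2). mir-377 had 33, 17 and 6 counts of the 5p arm and 31, 62 and 29 of the 3p arm, a 5p share of 51.6% (39.6 to 63.4), 21.5% (13.9 to 31.8) and 17.1% (8.10 to 32.7). mir-539 had 20, 22 and 4 counts of the 5p arm and 35, 66 and 47 of the 3p arm, so that its 5p share was 36.4% (24.9 to 49.6) at the first age and 7.84% (3.09 to 18.5) at the last, the former being 54.2% when only copies of the representative read were counted. For mir-382 it was 77.9%, 69.0% and 62.9%, with a last interval of 52.95 to 71.84 that just overlapped the first of 71.77 to 82.99.

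Other hairpins held their arms in like shares or went the other way. mir-411c had 74.2% (64.7 to 81.9), 79.5% (73.9 to 84.2) and 82.4% (72.2 to 89.4) from its 5p arm, and mir-485 had 78, 63 and 33 counts of the 5p arm beside 117, 115 and 33 of the 3p arm, in each case with overlapping intervals. mir-493, with 81.0%, 83.4% and 67.4%, also had intervals that overlapped between 63 d (74.4 to 86.2) and 161 d (53.4 to 78.8).

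**Figure D4:**
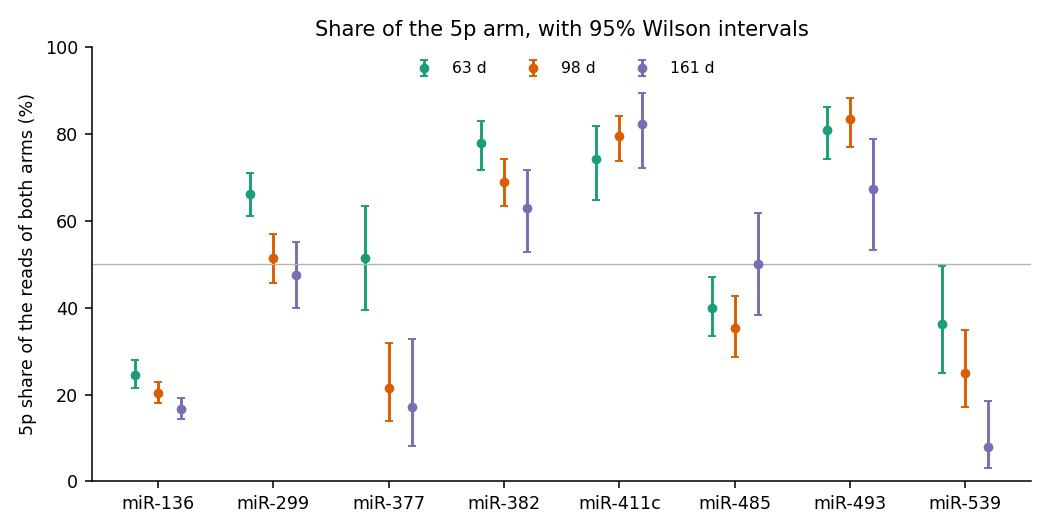
Share of the 5p arm in the reads of both arms (%) for 8 hairpins at 63, 98 and 161 d, with 95% Wilson intervals that cover counting error only. The share is lower at 161 d than at 63 d in mir-136, mir-299, mir-377 and mir-539 with separate intervals, and not in mir-411c or mir-485.

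Of the reads of the members, 78.3%, 80.8% and 80.8% were without mapping error at the successive ages, against 82.8%, 81.5% and 82.4% of all reads. ssc-miR-127 was lower, with 67.4%, 67.7% and 69.3%, and its representative read made up 38.4%, 38.6% and 38.4% of its reads. For ssc-miR-432-5p 54.8%, 56.6% and 54.2% were without error. bta-miR-379 had no read without error at any age, and it was listed with the substitution A10G against the bovine entry, with positions counted from 1 at the 5′ end of the read. bta-miR-381 was listed with G10A, and 93.2%, 93.7% and 94.2% of its reads were without error. These substitutions lie outside the seed. bta-miR-379 had no genome position and bta-miR-381 had one, and whether mapping errors are scored alike in such members was not tested.

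The 5′ end sets the seed, and it differed from the entry in part of the members. The representative read began at the same base as the entry whose name is given here in 64 of 79 members, earlier in 8 and later in 7, and the seed differed from that of the entry in 17. Among the 20 highest members, cfa-miR-409 and ssc-miR-382 began 1 base earlier and bta-miR-323 and bta-miR-411a 1 base later than the entry. The read of bta-miR-411a was also listed as hsa-miR-411-5p, with the same 5′ end and seed as that entry. In these 4 members the seed of the read therefore differs from that of the entry whose name is given.

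Base composition moved with the fold between ages, a relation looked for after the folds had been seen. From 63 to 98 d the correlation between the share of G and C in the representative read and the log2 fold was r = -0.64 (Spearman rho -0.57) over 51 members, and r = -0.35 (rho -0.52) over 416 other miRNAs with reads in both libraries. The 16 members with less than 40% G and C had a median log2 fold of 0.27, and the 17 members with 50% or more had -0.63. The corresponding medians of the other miRNAs tested, here including those without reads in a library of the pair, were 0.68 and -0.17. From 98 to 161 d the relation was weak, with r = 0.23 (rho 0.19) over 50 members and 0.20 (rho 0.30) over 435 others. From 63 to 161 d it was -0.43 (rho -0.47) over 49 members and -0.18 (rho -0.28) over 401 others. All points of a pair come from the same 2 libraries, so these are descriptions across miRNAs and not of ages, and the part of base composition in the folds was not tested.

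**Figure D5:**
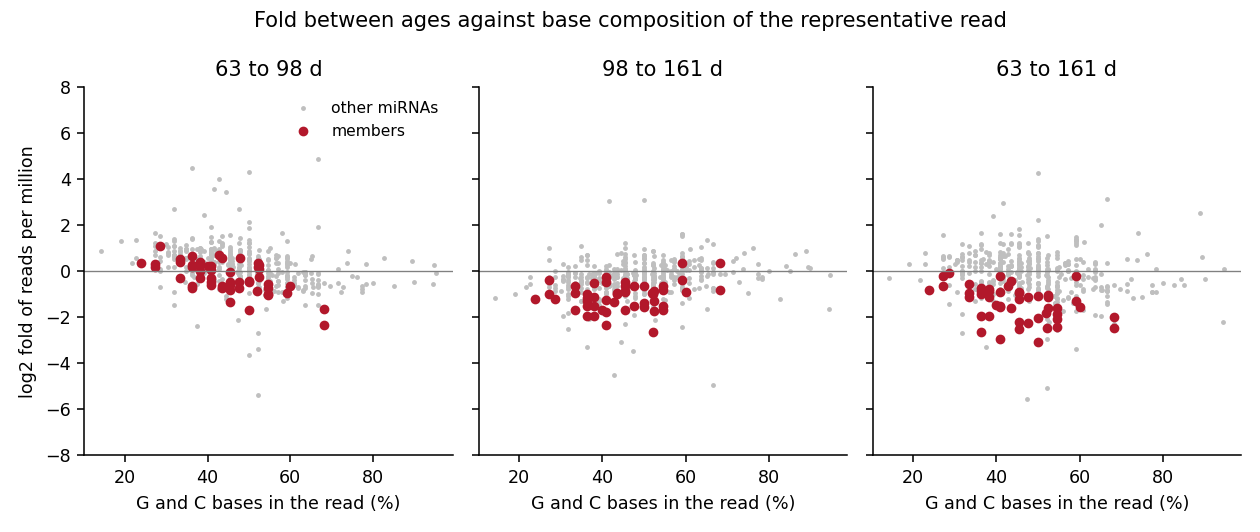
Log2 fold of RPM against the share of G and C bases in the representative read (%), for members (red) and other miRNAs (grey) with at least 20 counts in the pair and at least 1 in each library. From 63 to 98 d both sets slope downwards, with r = -0.64 over the members and -0.35 over the others. From 98 to 161 d the median of the members with 50% or more G and C is -0.93, against -0.10 in the others. This last median includes miRNAs without reads in a library of the pair, which are not drawn.

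Within most hairpins tested from 63 to 98 d, the arm richer in G and C had the smaller fold. In mir-377 the 5p arm was richer in G and C than the 3p arm, and the folds from 63 to 98 d were 0.312 and 1.21. mir-382 and mir-539 had the same order, with folds of 0.722 and 0.666 in the richer 5p arm and 1.15 and 1.14 in the 3p arm. The richer arm also had the smaller fold in mir-127, mir-369, mir-381, mir-409, mir-411, mir-411c and mir-493. Some of these arms had few counts, as hsa-miR-127-5p with 8 at 63 d and 17 at 98 d. The arms of mir-485 had equal shares of G and C. Only in mir-136 and mir-299 did the arm with less G and C, the 5p arm, have the smaller fold, 0.810 against 1.03 and 0.402 against 0.746.

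The values of 2 other miRNA clusters are given for comparison. The cluster of miR-424, miR-503, miR-542 and miR-450, whose miRNAs lie together on the X chromosome in mammals, summed to 1141, 2703 and 1344 RPM, with folds of 2.37 (2.24 to 2.50) in the first step and 0.497 (0.476 to 0.519) in the second. From 63 to 161 d its summed fold was 1.18 (1.11 to 1.251), against 0.438 in the DLK1-DIO3 locus. Its members were divided, with 5 of 9 tested below 1, none below 0.5 and a median log2 fold of -0.22. The miR-17-92 cluster with its paralogues, known from proliferating cells, summed to 15540, 9411 and 7772 RPM, with folds of 0.606 (0.595 to 0.617), 0.826 (0.810 to 0.842) and 0.5002 (0.490 to 0.510) over the whole period. Of its 17 members tested from 63 to 161 d, 6 were below 0.5 and 16 below 1, beside 31 and 49 of 49 in the DLK1-DIO3 locus and 19.4% and 55.8% of all miRNAs tested. No test of these differences was possible with 1 library per age.

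Other miRNAs of the locus that were looked up beside the list of numbers were low. bta-miR-1197 had 44, 42 and 37 counts and bta-miR-1247-5p 40, 43 and 33, or 30.04, 17.4 and 16.5 and 27.3, 17.8 and 14.7 RPM. The 10 names of this kind summed to 72.4, 48.4 and 41.9 RPM at 63, 98 and 161 d, the same order of ages as in the members. No interval was computed for these sums, so their order was not tested against counting error. From 98 to 161 d the log2 fold was -0.074 for bta-miR-1197, -0.273 for bta-miR-1247-5p and -0.306 for cfa-mir-300-p3. The median was -0.997 in the members and -0.306 over all miRNAs tested. No interval was computed for the folds of these names, and cfa-mir-300-p3 had only 16 and 12 counts in that step. Whether they differ from the members was therefore not tested. oar-miR-3957-3p and oar-miR-3956-3p, which neither list held, had log2 folds of -2.436 and -1.476 in that step. Whether they belong to the locus was not checked.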

How the data were processed

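The 3 small RNA libraries of psoas major, 1 per age, were analysed. Per the labels, the authors used ACGT101-miR 4.2, which filtered the reads and mapped them to miRBase hairpins and a pig genome whose build is not given in the sources used here. The deposited values are expected counts of each arm of a hairpin, not normalised, in which the authors divided a read mapping to several hairpins between them, and counts of copies of the representative read.

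The members and lists were chosen with earlier results of these data known. A name listed at several hairpins was counted at the hairpin listed in most libraries. Ties were settled by most reads, hairpin starts within 10 bases were merged, and arms were assigned by name or position, all settled after the files had been seen. Names sharing a sequence were summed. Expected counts were divided by the total of the library and given per 1000000 reads (Python 3.11.15, pandas 2.3.3, scipy 1.17.1). The libraries held 1464699, 2418187 and 2242716 reads. Members were tested against the 2-fold limit with at least 20 counts in a pair. Folds have 95% Clopper-Pearson and shares 95% Wilson intervals, which cover counting error only. With 1 library per age no p-value was computed. edgeR 4.0.16 and DESeq2 1.42.0 gave scaling factors only, on expected counts rounded to whole numbers where the tool needs it, and the script was tested on simulated data. The members named in the text were drawn from the 20 highest members, the 3 largest folds in each direction per pair, porcine names, and examples of hairpins with both arms and of shared seeds. Not every one of the 20 highest members is named.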

Additional observations from a re-analysis of the deposited data

How the results depend on the processing

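No paired analysis was possible because each age had 1 library. The counts past the limit depended on the scaling and on the minimum count. From 63 to 98 d, 5 of 51 members were below 0.5 (all miRNAs 6.38%). With DESeq2 factors or without miR-133a in the total it was 8 of 51 (all 10.1%), with a minimum of 100 counts 3 of 34 (all 5.0%), with a minimum of 1 count 12 of 77 (all 22.0%) and past a 1.5-fold limit 18 of 51 (all 17.3%). In the same pair 1 of 51 members was above 2 (all 13.2%). With DESeq2, edgeR TMM, the study's own factors or without miR-133a it was 0 of 51 (all 10.3%, 10.7%, 10.7% and 10.5%). With copies of the representative read only it was 2 of 47 (all 11.1%), and with a minimum of 1 count 12 of 77 (all 40.4%). Above the 1.5-fold limit were 5 of 51 (all 30.7%). From 98 to 161 d, 44 of 74 were below 0.5 with a minimum of 1 count (all 36.8%) and 42 of 50 at the 1.5-fold limit (all 32.6%), against 25 of 50 (all 16.3%). From 63 to 161 d, 20 of 29 (69.0%, all 16.9%) were below 0.5 with a minimum of 100 counts, against 31 of 49 (63.3%, all 19.4%), and 3 of 72 were above 2 with a minimum of 1 count (all 34.2%), against 0 of 49 (all 10.5%). The share of the locus was 1.36% at 63 d and 0.617% at 161 d with reads without mapping error, 1.35%, 0.958% and 0.603% with copies only, 0.751%, 0.622% and 0.348% without miR-127, and 2.08%, 1.35% and 0.883% with the total of the counted hairpins, which was added after seeing the data. Where the values of all ages are given here, the share was lower at each later age. The 5p share of mir-539 at 63 d was 54.2% with copies only, against 36.4%. Of the folds of all tested members under the alternatives, 1777 moved by less than their counting interval and 89 by more. This total is no measure of stability, because a minimum count cannot change a fold and the choice of hairpin moved none. The folds that moved by more were 21 with DESeq2 factors, 21 with the study's own factors and 19 with copies only. They were 14 with edgeR TMM and 11 without miR-133a in the total. The cause of these differences was not tested. Spread between pigs was not measured, and members under 20 counts in a pair were too shallow to compare.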
